A study of Mus musculus with 24 samples.

Results

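Integrins are adhesion receptors made of 1 alpha and 1 beta subunit, and 9 subunit genes outside the complement receptors were described here in microglia: Itga4, Itga5, Itga6, Itga9, Itgal, Itgav, Itgb1, Itgb3 and Itgb5. They were taken as a list of names, drawn up with earlier results of these data known, and are 9 of the 35519 genes that the deposited files resolve. Microglia, the resident macrophages of the brain, were isolated from whole brain of C57BL/6 mice as cells with CD11b and Fcrls but without Ly6C, and 1000 cells were lysed for each of 24 Smart-Seq2 libraries, a full-length RNA sequencing method without molecular identifiers. The libraries were labelled female or male, NL4-/- (lacking neuroligin-4, a synaptic adhesion protein) or WT, and phagocytosis or control. Each of the 4 phagocytosis groups (female NL4-/-, female WT, male NL4-/- and male WT) had 4 libraries and each of the 4 matching control groups had 2. The design text calls them biological replicates. The labels name neither the material taken up nor whether uptake happened in the animal, and they give no age. The knocked-out gene, Nlgn4l, had 0 transcripts in the files and is not analysed here.

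An integrin spans the membrane, binds matrix or another cell outside and links to the actin cytoskeleton inside, and it signals in both directions: talin and kindlin switch it on from within, while bound ligand starts focal adhesion and Src family kinases. The partner decides the ligand. Itga5 pairs with Itgb1 as the fibronectin receptor, Itga4 and Itga9 pair with Itgb1 to bind VCAM1, tenascin and osteopontin, Itga6 makes laminin receptors, and Itgal pairs with Itgb2 as LFA-1, the ICAM receptor of leukocytes. Itgav pairs with Itgb3 or Itgb5 as vitronectin receptors, which in phagocytes also hold dying cells through bridging proteins such as MFG-E8.

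Total expected reads ran from 448652 to 1013797 per phagocytosis library and from 421107 to 884019 per control library. Every one of 12 microglia markers was read in both states, with a lower mean CPM in phagocytosis libraries for all 12. Fcrls is among the 12 and was used to sort the cells, so its detection was set by the sort. Their summed level had a median of 27200 CPM (lowest 18700, highest 45300) in phagocytosis libraries and of 42500 CPM (33300 to 47700) in control libraries. Satellite-like RNA took 1.49 to 15.92% of reads in phagocytosis libraries and 3.94 to 22.59% in control libraries, and 3 control libraries were above 20%. Ribosomal protein genes took 2.76 to 5.12% of reads in phagocytosis libraries and 2.02 to 3.09% in control libraries. Reads of Ddx3y and Eif2s3y, both Y-linked, summed to 7 to 37 in male libraries and 0 to 2 in female libraries. In bulk samples such as these, fewer cells of a type and less RNA per cell cannot be told apart.

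In phagocytosis libraries, 1 of the 9 integrin genes rose and 2 fell relative to control: Itga5 rose 4.41-fold, Itgb3 fell to 0.541 times and Itgb5 to 0.773 times its control level. The comparison is the mean over the 4 sex and genotype groups, tested with edgeR's quasi-likelihood F test across 9803 genes with Benjamini-Hochberg adjustment and a threshold of 0.05. Of all genes tested, 13.6% passed in either direction, 8.41% up and 5.18% down. All 9 integrin genes passed the expression filter, and their median log2 fold change was 0.10, against -0.005 over all genes.

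**Figure D1:**
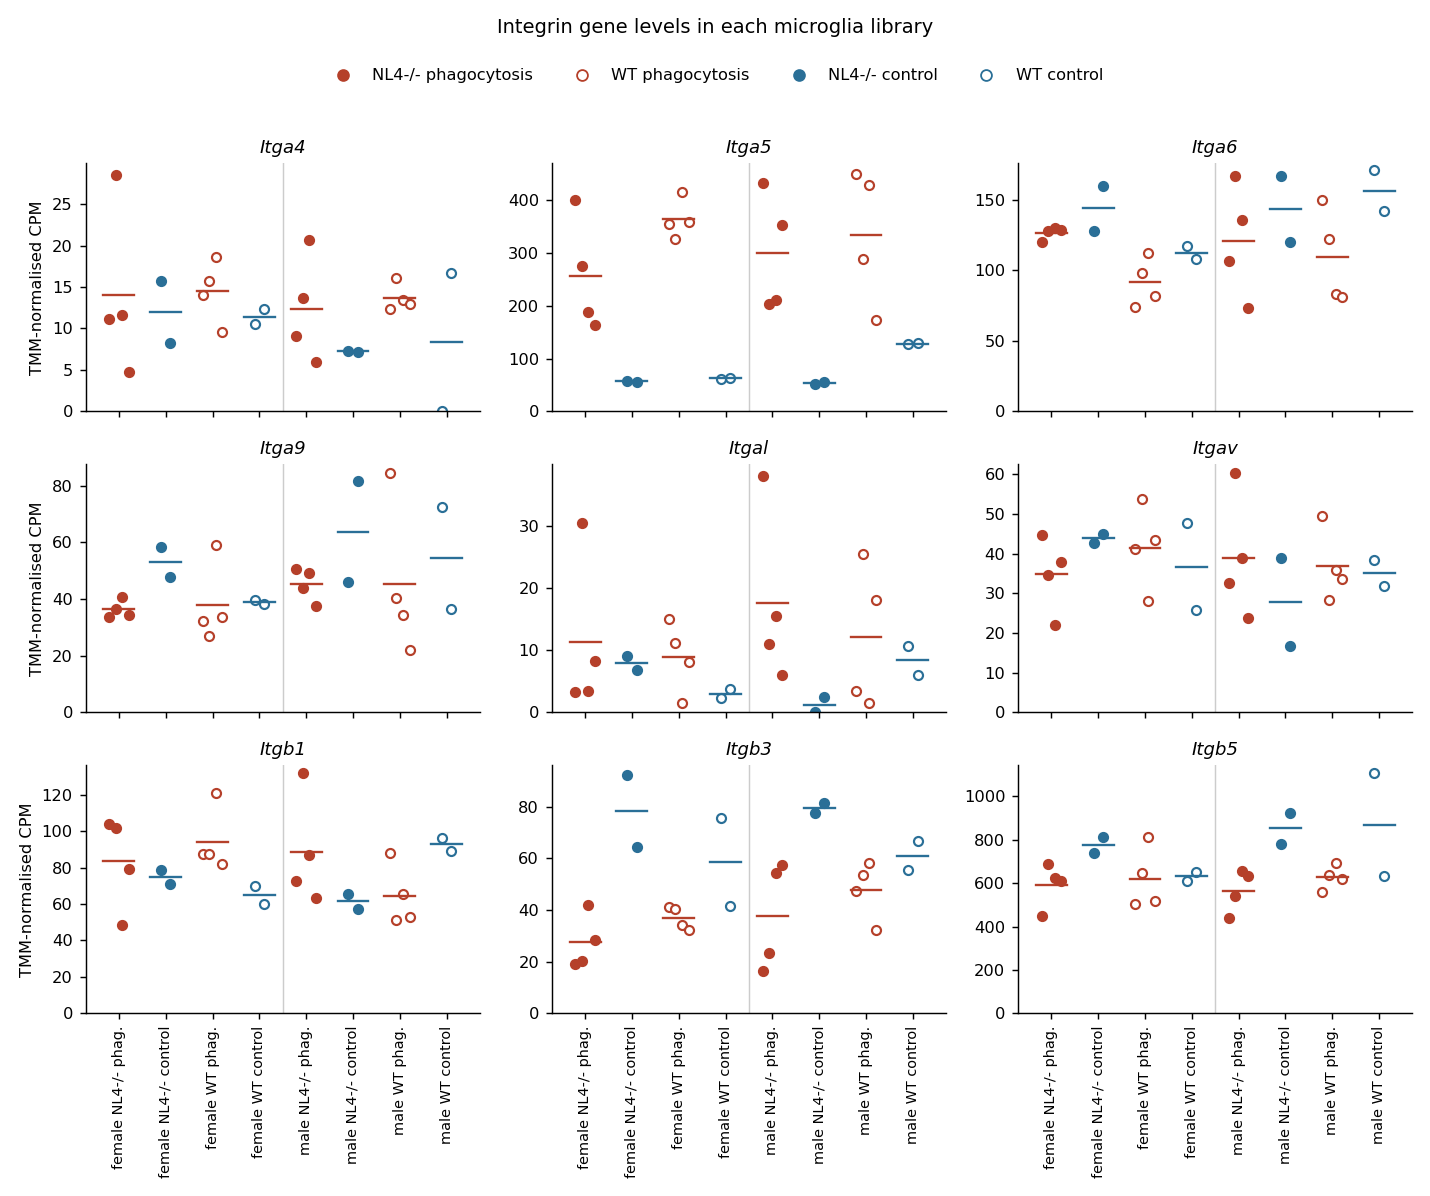
TMM-normalised CPM of the 9 integrin genes in each library, on linear axes that start at 0, with a panel per gene. Points are libraries (4 per phagocytosis group, 2 per control group) and lines are group means; red is phagocytosis, blue is control, filled is NL4-/- and open is WT. All 16 phagocytosis libraries lie above all 8 control libraries for Itga5, and 10 of 16 lie below every control library for Itgb3.

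Itga5 encodes the alpha subunit of the fibronectin receptor (chr15:103344286-103366763, minus strand, GRCm38), and 98.7% of its reads were assigned to 1 coding transcript, Itga5-201. Its promoter is shown because Itga5 had the smallest adjusted p of the 9 genes, and the promoter of Itgb5, the subunit at the highest level, is shown beside it for contrast. Both are RefSeq sequences on build GRCm38.p6 and run from 250 bases before the start site to 50 after it. The Itga5 window is chr15:103366742-103367041 on the minus strand, with its start site 28 bases from the GENCODE gene start, and the Itgb5 window is chr16:33829415-33829714 on the plus strand. Capitals mark exact matches, on either strand, to 4 motifs: the PU.1 core GAGGAA, AP-1 TGANTCA, the GC box GGGCGG and the TATA box TATAAA.
Itga5: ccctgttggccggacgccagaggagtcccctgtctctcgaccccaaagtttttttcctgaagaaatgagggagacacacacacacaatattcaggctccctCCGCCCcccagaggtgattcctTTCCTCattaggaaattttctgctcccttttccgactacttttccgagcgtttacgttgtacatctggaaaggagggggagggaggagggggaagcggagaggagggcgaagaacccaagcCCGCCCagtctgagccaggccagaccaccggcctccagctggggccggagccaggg
Itgb5: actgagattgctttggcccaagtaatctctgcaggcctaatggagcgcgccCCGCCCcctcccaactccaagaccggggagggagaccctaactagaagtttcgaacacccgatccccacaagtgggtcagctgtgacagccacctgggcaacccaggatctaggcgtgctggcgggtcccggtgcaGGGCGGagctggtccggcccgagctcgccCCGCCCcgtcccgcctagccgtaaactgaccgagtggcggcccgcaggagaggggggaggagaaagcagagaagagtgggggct
The Itga5 window held 1 PU.1 core, starting at -127 from the start site, and 2 GC boxes, at -149 and -6. The Itgb5 window held 3 GC boxes, at -199, -63 and -34, and no match to the other 3 motifs. Among 32851 mouse promoters of the same length, 28.3% held the PU.1 core, 35.7% the GC box, 13.6% the TATA box and 7.81% the AP-1 motif. Matches are a description of letters, not of binding.

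Levels of a gene are given as CPM, its reads scaled to a common library total after TMM normalisation. In female NL4-/- microglia, Itga5 stood at 401, 275, 189 and 164 CPM in phagocytosis libraries, against 58.4 and 56 CPM in control libraries. In female WT microglia it stood at 356, 327, 415 and 358 CPM in phagocytosis libraries, against 61.6 and 63.8 CPM in control libraries. Every phagocytosis library was above both controls of its own sex and genotype among females, as was seen for 12.1% of all genes in female NL4-/- and 11.5% in female WT mice. In male NL4-/- microglia Itga5 stood at 433, 204, 212 and 354 CPM in phagocytosis libraries, against 51 and 55.1 CPM in control libraries. In male WT microglia it stood at 450, 288, 429 and 173 CPM in phagocytosis libraries, against 128 and 129 CPM in control libraries. The highest control libraries were both from male WT mice, and the lowest of all phagocytosis libraries, at 164 CPM, was still above them. No overlap in the upward direction was seen in 0.796% of all genes. Itga5 averaged 314 ± 101 CPM in phagocytosis libraries (SD, n = 16) and 75.3 ± 33 CPM in control libraries (SD, n = 8).

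The log2 fold change of Itga5 was 2.14 ± 0.199 (SE), with an adjusted p of 6.09e-08 in edgeR's quasi-likelihood test. Tested within a single sex and genotype in edgeR, Itga5 passed upward in 3 of 4 groups. The rises, in log2 ± SE, were 2.16 ± 0.403 in female NL4-/- (adjusted p = 0.00873), 2.53 ± 0.394 in female WT (0.00139) and 2.49 ± 0.421 in male NL4-/- mice (0.0041). In male WT mice the log2 fold change was 1.38 ± 0.369 with an adjusted p of 0.147. Of all genes, 0.408% passed upward in female NL4-/-, 0.541% in female WT, 0.5% in male NL4-/- and 0.316% in male WT mice. Each of the 3 calls within a group was lost when either of its 2 control libraries was left out, and no integrin gene then passed in that group. The state difference did not pass a test of its change with genotype (NL4-/- minus WT, 0.37 ± 0.376 log2, adjusted p = 1) or with sex (male minus female, -0.41 ± 0.376, adjusted p = 1).

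Markers of other cell types were read beside Itga5. The summed level of 14 markers of border-associated macrophages had a median of 1740 CPM (1440 to 2470) in phagocytosis libraries and of 1050 CPM (916 to 1760) in control libraries, with 13 of 14 at a higher mean in phagocytosis. Among them Lyve1 averaged 4.71 CPM in phagocytosis libraries and 0.247 CPM in control libraries. Stab1, which made up most of that sum, averaged 1460 CPM in phagocytosis libraries and 993 CPM in control libraries. The sum of 14 monocyte markers had a median of 91.8 CPM (30.5 to 241) in phagocytosis libraries and of 46.2 CPM (20 to 93.3) in control libraries, with 12 of 14 at a higher mean. Fn1 was the largest part of that sum in both states, at a mean of 47.7 CPM in phagocytosis and 29.4 CPM in control libraries. None of these border-associated markers was at 0 in either state, and the monocyte markers Gm9733 and Lyz1 were at 0 in control and Ly6c1 in phagocytosis. The monocyte markers Ly6c1 and Ly6c2 encode the Ly6C by which cells were left out in the sort. Summed neuron markers had a median of 63 CPM (43 to 129) in phagocytosis libraries and of 28.4 CPM (18.8 to 55.5) in control libraries, with 10 of 11 at a higher mean. Most of that difference lay in Uchl1, which averaged 32.3 CPM in phagocytosis and 2.01 CPM in control libraries. Thy1, the other large part, averaged 26.8 CPM in phagocytosis and 24.8 CPM in control libraries. Oligodendrocyte markers had medians of 207 CPM (167 to 370) in phagocytosis and 146 CPM (123 to 185) in control libraries, 7 of 10 at a higher mean. Endothelial markers had medians of 65.1 CPM (35.1 to 146) in phagocytosis and 38.4 CPM (28.9 to 51.7) in control libraries, with only 6 of 12 at a higher mean. Ly6a (21.1 CPM in phagocytosis, 8.19 CPM in control) and Pecam1 (29.7 and 17.2 CPM) made up most of the endothelial sum, and Cldn5 had 0 reads. B cell markers were lower, with medians of 244 CPM (171 to 442) in phagocytosis and 407 CPM (252 to 601) in control libraries, and 2 of 8 had a higher mean in phagocytosis. Ighm made up most of the B cell sum, at 236 CPM in phagocytosis and 342 CPM in control libraries. Astrocyte markers had medians of 103 CPM in phagocytosis and 101 CPM in control libraries, 9 of 10 at a higher mean. Neutrophil markers had medians of 483 CPM in phagocytosis and 561 CPM in control libraries, 7 of 12 at a higher mean. For pericytes and fibroblasts the medians were 9.04 and 6.89 CPM, 7 of 10 at a higher mean. The part of any of these cells in the integrin values was not tested.

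Itgb1, the common beta partner of Itga5, Itga4, Itga9 and Itga6 (chr8:128685654-128733200, plus strand), did not pass the test. Its median was 84.2 CPM in phagocytosis libraries, with a lowest of 48.7 and a highest of 132, against 70.3 CPM in control libraries, with a lowest of 57.5 and a highest of 96.1. The states overlapped: 4 phagocytosis libraries lay above every control library and 3 below every one. The log2 fold change was 0.18 ± 0.156 (SE, adjusted p = 0.51 in edgeR). Per length, the ratio of Itga5 to Itgb1, both in TPM, had a median of 2.12 (0.931 to 3.47) in phagocytosis libraries and of 0.616 (0.43 to 1.14) in control libraries. This ratio and those that follow were chosen after the values were seen and are given without a test.

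Itgb3 encodes the beta subunit that pairs with Itgav in macrophages and with Itga2b in platelets (chr11:104608000-104670476, plus strand), and 99.8% of its reads were assigned to Itgb3-201. In female NL4-/- microglia it stood at 19.2, 20.3, 41.8 and 28.5 CPM in phagocytosis libraries, against 92.2 and 64.2 CPM in control libraries. In female WT microglia it stood at 41.1, 40.3, 34.2 and 32.1 CPM in phagocytosis libraries, against 75.5 and 41.7 CPM in control libraries. Both female groups were without overlap, though 1 WT control library lay within 1 CPM of the highest phagocytosis library of its group. Such lack of overlap in the downward direction within a sex and genotype was seen in 8.2 to 12.6% of all genes. In male NL4-/- microglia Itgb3 stood at 16.3, 23.3, 54.4 and 57.3 CPM in phagocytosis libraries, against 77.7 and 81.5 CPM in control libraries. In male WT microglia it stood at 47.3, 53.7, 58.1 and 32.3 CPM in phagocytosis libraries, against 55.5 and 66.6 CPM in control libraries. Only the male WT groups overlapped within their own sex and genotype, and all 16 phagocytosis libraries were below the control median.

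Itgb3 averaged 37.5 ± 14 CPM in phagocytosis libraries (SD, n = 16) and 69.4 ± 15.9 CPM in control libraries (SD, n = 8). It fell by 0.89 on the log2 scale (SE 0.191, adjusted p = 0.00216 in edgeR). No single group passed: log2 fold changes were -1.45 ± 0.382 in female NL4-/-, -0.67 ± 0.375 in female WT, -1.07 ± 0.388 in male NL4-/- and -0.36 ± 0.38 in male WT mice, with adjusted p from 0.0931 to 0.858. Of all genes, 0.051% passed downward in female NL4-/-, 0.0408% in female WT, 0.102% in male NL4-/- and 0.0102% in male WT mice. Without the 3 control libraries above 20% satellite-like RNA the value was -0.78 with an adjusted p of 0.0705, and the call was lost. The summed level of 12 platelet and megakaryocyte markers had a median of 39.9 CPM (21.9 to 109) in phagocytosis libraries and of 35.4 CPM (25 to 45.5) in control libraries, 7 of 12 at a higher mean in phagocytosis. Itga2b, the platelet partner, had 24 reads in all libraries together, and the platelet markers Clec1b, Gp5, Ppbp and Tubb1 had 0 reads in control.

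Itgb5, the other beta partner of Itgav, has its gene at chr16:33829665-33949338 on the plus strand. It had a median of 620 CPM in phagocytosis libraries, with a lowest of 438 and a highest of 812, against 759 CPM in control libraries, with a lowest of 612 and a highest of 1110. The states overlapped: 7 of 16 phagocytosis libraries were below every control library and 15 were below the control median. Itgb5 fell by 0.37 on the log2 scale (SE 0.115, adjusted p = 0.03 in edgeR). The highest control library was a male WT library at 1110 CPM, whose partner in that group stood at 631 CPM. Within groups the log2 fold changes were -0.39, -0.03, -0.59 and -0.47 in female NL4-/-, female WT, male NL4-/- and male WT mice, none past the threshold.

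The Itgb5 call was less steady than the other calls. It was lost in 11 of the 24 fits that each left out 1 library, with log2 fold changes of -0.38 to -0.25 and adjusted p of 0.0518 to 0.19. The libraries concerned were every control library except male WT control 2, and 4 phagocytosis libraries: replicate 4 of female WT and replicate 1 of female NL4-/-, male WT and male NL4-/-. Its reads were divided among 3 coding transcripts, of which Itgb5-207 took 60.5% in phagocytosis and 66.4% in control libraries. Itgb5-202 took 23.8% in phagocytosis and 31.7% in control libraries, and Itgb5-201 took 15.6% in phagocytosis and 1.8% in control libraries. Itgb5-201 was read in 9 of 24 libraries, so the split among transcripts rests on few libraries and was not tested.

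Itgav, which joins both beta chains in the vitronectin receptors (chr2:83724397-83806916, plus strand), did not pass. Its median was 36.9 CPM in phagocytosis libraries (22 to 60.3) and 38.6 CPM in control libraries (16.8 to 47.6), with a log2 fold change of 0.10 ± 0.2 (SE, adjusted p = 0.806 in edgeR). Overlap was wide: 7 of 16 phagocytosis libraries were above the control median and 9 below it. Coding transcripts held 70.8% of its reads. The TPM ratio of Itgb3 to Itgb5 had a median of 0.0258 (0.0126 to 0.0352) in phagocytosis libraries and of 0.037 (0.0195 to 0.0497) in control libraries. Itgb5 over Itgav, in TPM, had a median of 6.15 (2.23 to 19.6) in phagocytosis libraries and of 7.96 (2.72 to 51.4) in control libraries. The 2 ratios overlapped between the states. The ratio over Itgav also depends on how Itgav reads were assigned to short transcripts: Itgav-205, of 463 bases, took 10.7% of them.

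**Figure D2:**
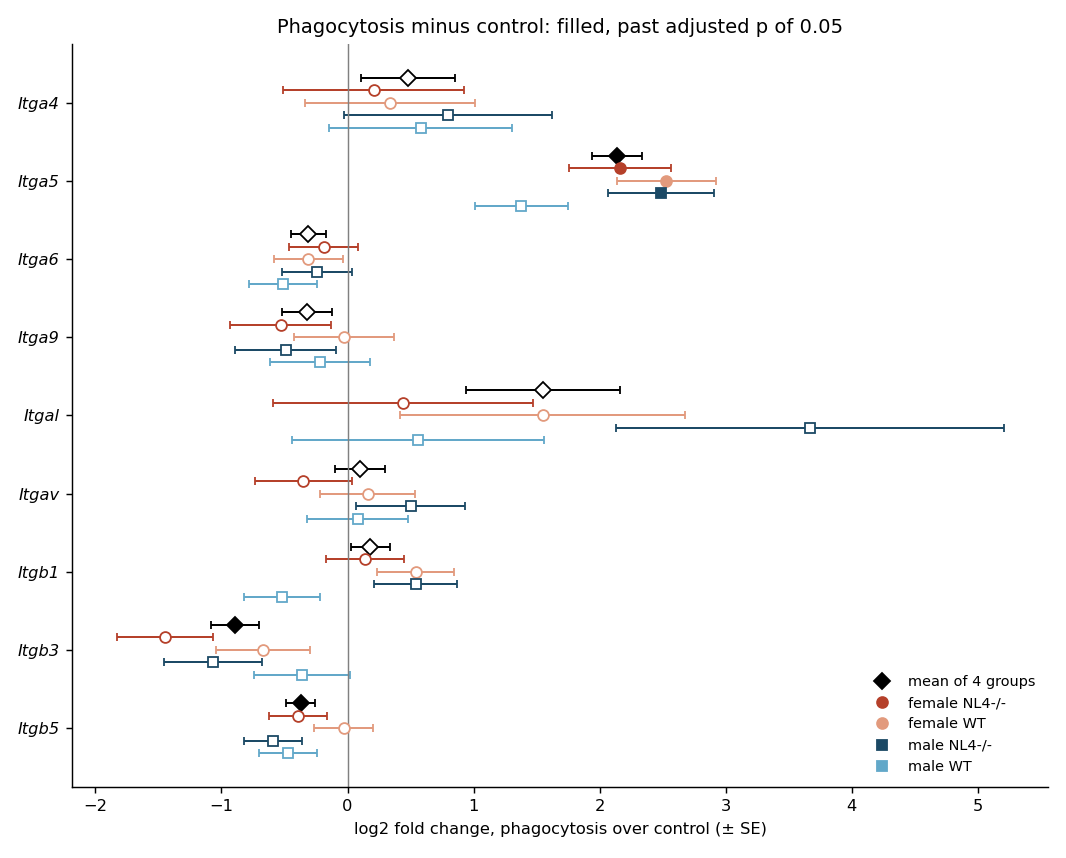
Log2 fold change of phagocytosis over control for each integrin gene, with its standard error, as the mean of the 4 groups (diamond) and within each sex and genotype. Filled symbols are past an adjusted p of 0.05: the mean of Itga5 at 2.14, of Itgb3 at -0.89 and of Itgb5 at -0.37, and Itga5 in 3 of the 4 groups.

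Itgal, the alpha chain of LFA-1 (chr7:127296260-127335138, plus strand), was low and scattered. Its median was 9.63 CPM in phagocytosis libraries, with a lowest of 1.49 and a highest of 38, against 4.87 CPM in control libraries, with a lowest of 0 and a highest of 10.7. These levels rest on 134 reads in all phagocytosis libraries and 24 in all control libraries. Of 16 phagocytosis libraries 8 were above every control library, but 5 were below the control median, and high and low libraries stood side by side in each group. The log2 fold change was 1.55 ± 0.613 (SE, adjusted p = 0.0789 in edgeR), which missed the threshold. It was 1.65 with an adjusted p of 0.0487 without male WT phagocytosis 3, a library with 1 Itgal read. Without male NL4-/- control 2 it was 2.31, but the male NL4-/- control library that remains has 0 Itgal reads. The value of 2.31 thus depends on edgeR's prior count. Itgal passed with no filter on low counts (1.56, adjusted p = 0.0173) and with phagocytosis numbers 1 and 2 only (2.04, adjusted p = 0.0155). No single group passed: log2 fold changes were 0.44 ± 1.03 in female NL4-/-, 1.55 ± 1.13 in female WT, 3.67 ± 1.54 in male NL4-/- and 0.56 ± 1 in male WT mice, with adjusted p of 0.337 or more. The male NL4-/- value rests on 44 reads in phagocytosis and 1 in control libraries. The sum of 14 T and NK cell markers had a median of 7.9 CPM (0 to 25.1) in phagocytosis libraries. In control libraries it was 7.49 CPM (5.93 to 19.5), and 9 of 14 had a higher mean in phagocytosis. Gzma and Klrb1c, at 0 in control, had only 2 and 1 reads in all phagocytosis libraries. Cd3d, the highest of the 14 in both states, averaged 2.63 CPM in phagocytosis and 3.86 CPM in control libraries.

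Itgb2, the beta partner of Itgal and of the complement receptors, was abundant in both states and its state difference did not pass. It averaged 827 ± 115 CPM in phagocytosis libraries (SD, n = 16) and 818 ± 99.1 CPM in control libraries (SD, n = 8), a log2 fold change of 0.01 ± 0.104 (SE, adjusted p = 0.961 in edgeR). In TPM, Itgal was a small part of Itgb2: the ratio had a median of 0.00612 (0.00129 to 0.027) in phagocytosis libraries and of 0.0034 (0 to 0.00597) in control libraries. The highest ratio, 0.027, came from male WT phagocytosis 3, whose Itgal TPM of 7.55 rests on 1 read.

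Itga4, the alpha chain of VLA-4 (chr2:79255426-79333123, plus strand), was near the lower limit of what these libraries measure. Its median was 13.2 CPM in phagocytosis libraries (4.74 to 28.5) and 9.32 CPM in control libraries (0 to 16.7), from 150 reads in all phagocytosis and 49 in all control libraries. Group means were higher in phagocytosis in all 4 sex and genotype groups, yet only 3 libraries lay above every control, and the log2 fold change was 0.48 ± 0.37 (SE, adjusted p = 0.424 in edgeR). Without male WT control 2 the fitted value was 1.9 with an adjusted p of 0.0356, but the male WT control library that remains has 0 Itga4 reads, so that this value depends on edgeR's prior count.

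Itga6, the alpha chain of laminin receptors (chr2:71745616-71858416, plus strand), had a median of 116 CPM in phagocytosis libraries (73.1 to 167) and of 135 CPM in control libraries (108 to 171). Although 7 of 16 phagocytosis libraries were below every control library, the log2 fold change of -0.31 ± 0.137 (SE) did not pass (adjusted p = 0.135 in edgeR). Coding transcripts held 56.2% of its reads, and a single processed transcript held 38.5%. Itga9, whose product binds tenascin and osteopontin (chr9:118606690-118901003, plus strand), had a median of 37.1 CPM in phagocytosis libraries (21.9 to 84.4) and of 46.9 CPM in control libraries (36.3 to 81.5). Its log2 fold change of -0.32 ± 0.199 (SE) did not pass either (adjusted p = 0.319 in edgeR). For both genes the group mean was lower in phagocytosis in all 4 groups.

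Levels of different integrin genes were compared per length, in the deposited TPM. In all 16 phagocytosis and all 8 control libraries Itgb5 was the highest of the 9 genes, at 212 ± 46.5 TPM in phagocytosis and 233 ± 119 TPM in control libraries (SD). By median the order of the states was the reverse for Itgb5, at 211 TPM in phagocytosis and 190 TPM in control libraries. Its highest control library stood at 474 TPM. Itga5 followed in phagocytosis libraries at 61.9 ± 22.7 TPM, against 15 ± 11.7 TPM in control libraries, where its rank was 4 to 6. Itga6 stood at 52 ± 9.62 TPM in phagocytosis and 49.7 ± 25.4 TPM in control libraries. In phagocytosis libraries Itga5 was at rank 2 in 8 libraries and Itga6 in 6, so these neighbours were not apart beyond their spread.

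Below them, Itgav had 35.8 ± 22.4 TPM in phagocytosis and 29.4 ± 24.6 TPM in control libraries, and Itgb1 had 30.5 ± 8.9 TPM in phagocytosis and 20.4 ± 10.6 TPM in control libraries. Itga9 had 7.34 ± 3.99 TPM in phagocytosis and 8.19 ± 5.38 TPM in control libraries, and Itgb3 had 5.37 ± 2.21 TPM in phagocytosis and 7.58 ± 2.29 TPM in control libraries. Within each of these pairs the genes were not apart beyond their spread. Itgav TPM did not follow its reads: female WT phagocytosis 2 had 24 reads and 103 TPM, male NL4-/- phagocytosis 2 had 44 reads and 23.1 TPM. Part of the Itgav reads was assigned to short transcripts, such as Itgav-205 of 463 bases with 10.7%. In CPM, Itgav averaged 37.3 and Itgb1 79.6 over all libraries, so the TPM order of these genes is uncertain. Lowest were Itgal, with 2.65 ± 2.26 TPM in phagocytosis and 0.741 ± 0.567 TPM in control libraries, and Itga4, with 2.45 ± 1.03 TPM in phagocytosis and 1.38 ± 0.851 TPM in control libraries. The complement receptor chains set the scale: Itgb2 had 281 ± 65.7 TPM in phagocytosis and 209 ± 73.1 TPM in control libraries, and Itgam 189 ± 58.6 TPM in phagocytosis and 211 ± 96.6 TPM in control libraries. Itgam encodes CD11b, by which the cells were sorted, so its detection was set by the sort. These TPM compare genes, while the states were tested on counts, and the 2 scales can differ between states. In CPM, Itgb2 averaged 827 in phagocytosis and 818 in control libraries, and Itgb1 82.7 in phagocytosis and 73.5 in control libraries.

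**Figure D3:**
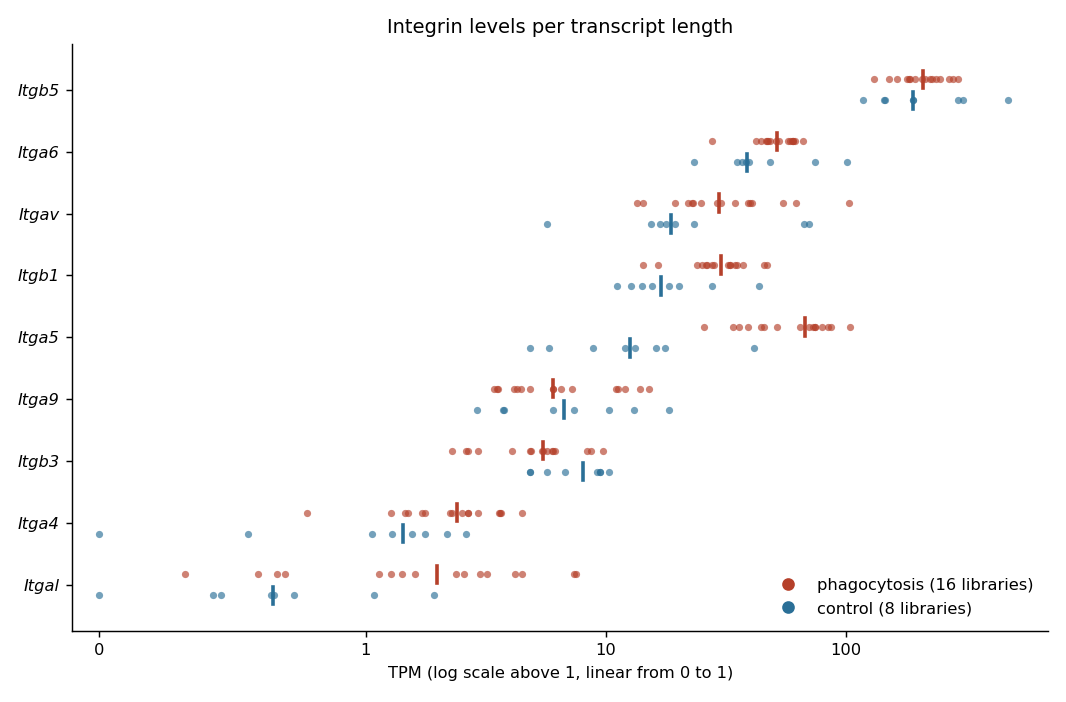
Level of each integrin gene in TPM, on an axis that is linear up to 1 and logarithmic above it. Points are libraries and bars are medians, with 16 phagocytosis libraries in red above 8 control libraries in blue; Itgb5 is highest in both states, and Itga5 has a mean of 61.9 TPM in phagocytosis and 15 TPM in control.

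None of the 9 integrin genes passed in NL4-/- against WT microglia. This held in edgeR for the mean of the 4 sex and state groups, for phagocytosis and control libraries apart, and within each sex and state. In each of these comparisons edgeR called 0% of the 9803 genes. DESeq2 called 13 genes in the overall mean and 0 to 5 in the others, with none of the 9 among them. At an unadjusted p under 0.05 edgeR found 1 of the 9 (Itga5) and 438 of all genes in the overall mean, 0 of the 9 and 500 of all genes in the phagocytosis mean, and 1 of the 9 (Itga5) and 331 of all genes in the control mean.

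Itga5 was lower in NL4-/- libraries in both states without passing. Its median was 243 CPM in NL4-/- phagocytosis libraries, with a lowest of 164 and a highest of 433, against 357 CPM in WT phagocytosis libraries, with a lowest of 173 and a highest of 450. In control libraries it stood at 58.4, 56, 51 and 55.1 CPM in NL4-/- mice, against 61.6, 63.8, 128 and 129 CPM in WT mice. The genotypes overlapped in phagocytosis and did not overlap in control, where the male WT libraries were apart from the rest. Lack of overlap with NL4-/- below WT was seen in 2.08% of all genes in control libraries. The overall log2 difference of NL4-/- minus WT was -0.52 ± 0.188 (SE, adjusted p = 0.933 in edgeR), and it was -0.33 ± 0.195 in phagocytosis (0.944) and -0.7 ± 0.321 in control (1). Over the alternatives the adjusted p of the overall difference ran from 0.0637, in DESeq2, to 1.

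Itgb3 averaged 32.6 ± 16.3 CPM in NL4-/- and 42.4 ± 9.88 CPM in WT phagocytosis libraries (SD, n = 8 each). In control libraries it averaged 78.9 ± 11.6 CPM in NL4-/- and 59.8 ± 14.6 CPM in WT mice (SD, n = 4 each). The order of the genotypes thus differed between the states, but the test of that difference did not pass (-0.75 ± 0.386 log2, SE, adjusted p = 1 in edgeR). Itga6 averaged 124 ± 26.7 CPM in NL4-/- and 100 ± 26 CPM in WT phagocytosis libraries (SD, n = 8 each), a log2 difference of 0.32 ± 0.159 (SE, adjusted p = 0.944 in edgeR). For Itgb5, the overall log2 difference of NL4-/- minus WT was 0.01 ± 0.117, and for Itgb1 it was -0.03 ± 0.155. The precision was lowest for Itgal, at -0.13 ± 0.671.

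**Figure D4:**
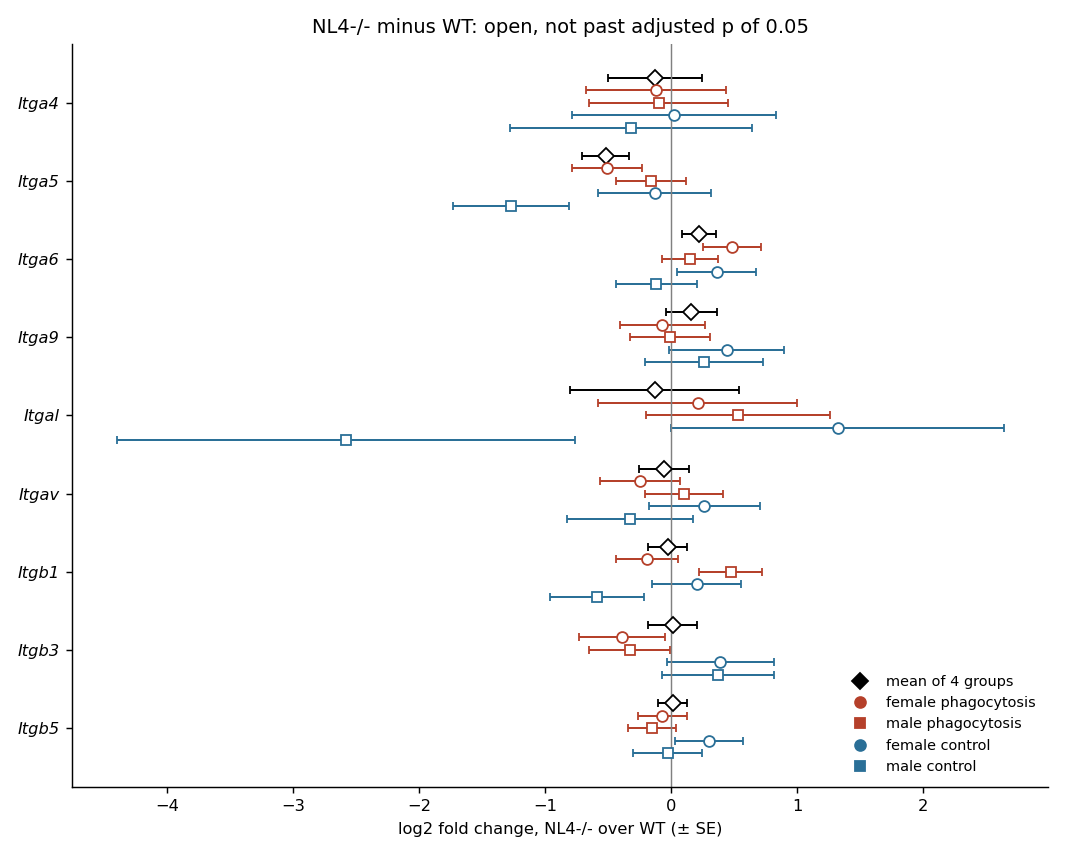
Log2 fold change of NL4-/- over WT for each integrin gene, with its standard error, as the mean of the 4 sex and state groups (diamond) and within each of them. All symbols are open because none passed an adjusted p of 0.05; the overall mean of Itga5 is -0.52 and that of Itgb3 is 0.01.

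In male against female microglia none of the 9 genes passed. The log2 differences of male minus female ran from -0.28 to 0.33, none with an unadjusted p under 0.05, in a comparison where edgeR called 0.0612% of genes and DESeq2 called 21 genes. No integrin gene passed an interaction of state with genotype, of state with sex, or of genotype with sex in phagocytosis, in edgeR or DESeq2. Over all genes edgeR called 0% in each of the 3 and DESeq2 called 1, 1 and 2 genes, while 276, 190 and 467 genes had an unadjusted p under 0.05 in edgeR.

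Among the other 17 integrin subunit genes 4 passed the expression filter, and 1 of them rose in phagocytosis: Itgax, the alpha chain of complement receptor 4, at 18.6 ± 8.52 CPM in phagocytosis and 9.32 ± 7.17 CPM in control libraries (SD). Over all genes tested, 8.41% rose. The log2 fold change of Itgax was 1.12 ± 0.342 (SE, adjusted p = 0.0241 in edgeR). That call was lost in 3 fits without 1 library (female WT control 1, male WT control 1 or male NL4-/- control 2), with values of 0.99 to 1.06. Itgam, the alpha chain of complement receptor 3, had -0.2 ± 0.114 (adjusted p = 0.27) and Itgb7, a partner of Itga4 in lymphocytes, -0.58 ± 0.61 (adjusted p = 0.571), which was 0.79 without male WT control 1. The cells were sorted by CD11b, the product of Itgam. The 13 subunits that did not pass the filter had 4 to 60 reads in all libraries together.

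Of 30 genes for integrin ligands and bridging proteins in the files, 16 passed the filter. Of these 5 rose and 0 fell (8.41% and 5.18% over all genes tested), with a median log2 fold change of 0.57 over the 16. Lgals3, a galectin that binds integrin glycans, averaged 358 ± 152 CPM in phagocytosis and 17.2 ± 10.6 CPM in control libraries (SD), a log2 fold change of 4.4 ± 0.4 (SE, adjusted p = 8.31e-07 in edgeR). Tgfbi, a matrix protein bound by Itgav integrins, had a log2 fold change of 2.1 ± 0.239 (4.13e-06), and Postn (periostin) 2.23 ± 0.448 (0.000971), which was 2.97 without male NL4-/- control 1. Spp1, osteopontin, a ligand of Itgav, Itga4 and Itga9 integrins, averaged 213 ± 202 CPM in phagocytosis and 30.9 ± 27.2 CPM in control libraries, with a log2 fold change of 2.98 ± 0.68 (0.00773). Adam9 had 0.65 ± 0.204 (0.0313). Thbs1, thrombospondin, at 2.14 ± 0.807, did not pass (adjusted p = 0.0863) and was 3.27 without female NL4-/- control 2. Fn1, the fibronectin that Itga5 binds, averaged 47.8 ± 35.9 CPM in phagocytosis and 31.1 ± 19.6 CPM in control libraries, 0.74 ± 0.517 (adjusted p = 0.389).

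All 13 genes for membrane partners in the files passed the filter. Of these 5 rose and 1 fell (8.41% and 5.18% over all genes tested), with a median of 0.22. Cd44, the hyaluronan receptor, averaged 67.9 ± 27.9 CPM in phagocytosis and 5.55 ± 4.73 CPM in control libraries (SD), a log2 fold change of 4.08 ± 0.448 (SE, adjusted p = 9.01e-07 in edgeR). It was 4.93 without female NL4-/- control 1 and 4.82 without male NL4-/- control 1. The tetraspanin Cd63 had 0.94 ± 0.124 (4.29e-06), the urokinase receptor Plaur 1.4 ± 0.221 (8.43e-05), Slc3a2, the CD98 heavy chain that binds beta subunits, 0.58 ± 0.116 (0.00112), and Lgals3bp 1.08 ± 0.238 (0.00479). The tetraspanin Cd82 fell by 0.57 on the log2 scale (SE 0.163, adjusted p = 0.0186).

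Of 30 activators and adaptors 22 passed the filter, and 1 rose and 5 fell (8.41% and 5.18% over all genes tested), with a median of -0.1. Flna, filamin A, which binds beta tails and actin, averaged 460 ± 135 CPM in phagocytosis and 205 ± 21.8 CPM in control libraries (SD), a log2 fold change of 1.15 ± 0.171 (SE, adjusted p = 4.57e-05 in edgeR). The 5 genes that fell were Rasgrp3 (-0.63 ± 0.157, adjusted p = 0.00702), Rassf5 (-0.64 ± 0.162, 0.00843), Rapgef1 (-0.45 ± 0.126, 0.0147), Rap1b (-0.62 ± 0.198, 0.0347) and Parvg (-0.51 ± 0.172, 0.0486). Rap1b is a small GTPase that switches integrins on, and Parvg is an adaptor of integrin-linked kinase. Talin (Tln1, 551 ± 88.2 CPM in phagocytosis and 460 ± 41.8 CPM in control libraries) and kindlin-3 (Fermt3, 714 ± 131 CPM in phagocytosis and 809 ± 83.5 CPM in control libraries) did not pass. Tln1, Fermt3 and Fn1 were named after their values were seen.

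Of 31 kinases and signalling genes 28 passed the filter, and 1 rose and 4 fell (8.41% and 5.18% over all genes tested), with a median of -0.07. Elmo1, part of the guanine exchange factor complex that activates Rac1 in engulfment, averaged 333 ± 79.8 CPM in phagocytosis and 516 ± 35.1 CPM in control libraries (SD) and fell by 0.63 on the log2 scale (SE 0.128, adjusted p = 0.00134 in edgeR). Git2, Plcg2 and the kinase Syk also fell (-0.47, -0.45 and -0.36), and the adaptor Fyb rose by 0.35, with adjusted p of 0.00933 to 0.0463. The Src family kinase Fgr, at 0.77 ± 0.277, did not pass (adjusted p = 0.0603). Of 23 trafficking genes 18 passed the filter, and 3 rose and 1 fell (8.41% and 5.18% over all genes tested), with a median of -0.09. Dab2, an endocytic adaptor that carries integrins, averaged 181 ± 60.5 CPM in phagocytosis and 36.3 ± 21.6 CPM in control libraries, a log2 fold change of 2.5 ± 0.227 (adjusted p = 5.41e-08). Hax1 (0.72) and the endosomal GTPase Rab5c (0.6) rose, Numb fell by 0.51 on the log2 scale (adjusted p = 0.0207), and Gga3 and Snx17 did not pass (-0.4 and -0.22, adjusted p = 0.058 and 0.238).

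The calls of the weaker list genes rest on few libraries. Of 27 list genes named as past the threshold, 10 passed under all 33 alternatives: Flna, Elmo1, Lgals3, Tgfbi, Postn, Cd44, Cd63, Plaur, Dab2 and Hax1. Leaving out 1 library ended the call of Syk in 21 of 24 fits, of Parvg in 18, of Rap1b in 10, of Numb in 5, of Adam9, Cd82, Plcg2 and Rapgef1 in 4 each, of Fyb in 2 (female WT control 2 and female NL4-/- control 2), of Git2 in 1 (male NL4-/- control 2) and of Rasgrp3 in 1 (female WT control 2). For the genes with 1 to 5 such fits each library left out was a control library. Fgr passed in 4 of 24 such fits, and Gga3 and Thbs1 in 2 each. In NL4-/- against WT, 0 genes of these lists passed in edgeR, as for all genes.

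**Figure D5:**
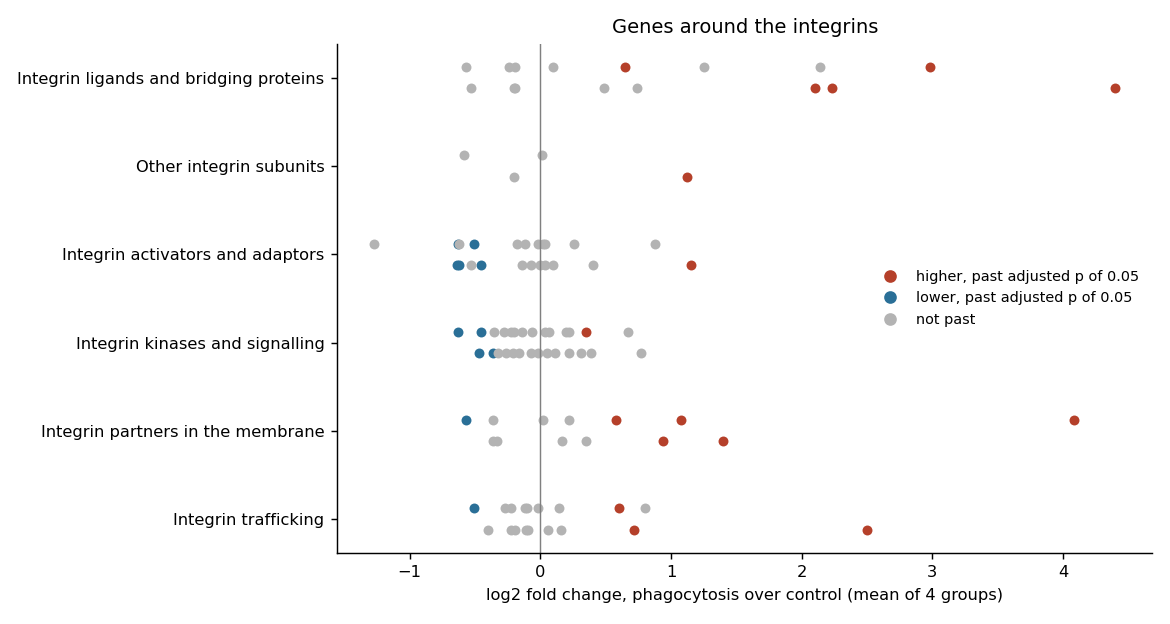
Log2 fold change of phagocytosis over control, mean of the 4 groups, for every tested gene of 6 lists around the integrins, with a point per gene. Red points rose and blue points fell past an adjusted p of 0.05, grey points did not pass; Lgals3 at 4.4 and Cd44 at 4.08 are farthest to the right.

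The genes whose levels varied most like each changed integrin gene were found by Pearson's r of log2 CPM over the 24 libraries after the mean of each state was taken away, among 9245 named genes. For Itga5 these were Plin2, a lipid droplet coat protein (r = 0.882), Cd14, a lipopolysaccharide co-receptor (0.837), and Dab2 (0.825). For Itgb3 they were Usp32 (0.706), Fibp (0.696) and Polr2j (0.693), and for Itgb5 Idnk (0.773), Creb3l2 (0.737) and Tsc22d4 (0.702). The libraries share depth and group within this measure, and the values are given as a description.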

How the data were processed

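For each of 24 libraries and 116945 transcripts the deposited files give lengths, the authors' expected count of reads and a TPM value. Per the file headers, the columns are those that salmon and similar quantifiers write; the version, index and genome build used were not given in these sources. The deposited expected counts can be fractional and carry no normalisation. The authors' TPM correct for effective length and share 1 sum across libraries.

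Of these transcripts, 116023 were found in GENCODE (GRCm38), 99.67% at an identical version. The other 922, with 0.274 to 0.379% of the reads per library, were not used. Counts were summed per gene and rounded to whole numbers. TPM were summed per gene for levels. edgeR 4.0.16 in R 4.3.3 (TMM normalisation, expression filter with minimum count 10, robust quasi-likelihood F test, two-sided) fitted 8 group means over all 24 libraries, which left 9803 genes, a common dispersion of 0.0812 and 16 comparisons. P-values were Benjamini-Hochberg adjusted over all genes tested (threshold 0.05). The script was tested on simulated data. Log2 fold changes carry a prior count of 0.125. CPM are TMM-normalised, except marker sums and marker reads, which use the library total. Marker sums are described only. Amplified reads without molecular identifiers are not independent molecules. The method does not mark strand, so reads of a gene and an antisense partner cannot be told apart.

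All 9 genes are reported. From each list up to 6 genes with the smallest adjusted p are named, plus Itgb2 and Itgam, and for each integrin gene past the threshold the 3 genes most like it. The members and lists were chosen with earlier results of these data known. The 33 alternatives (DESeq2 1.42.0, other scalings, no filter, length-scaled counts, a replicate block, subsets, and each library left out) are in the closing section. The design text states 5 phagocytosis replicates per group; 4 were used and the fifth is not analysed here.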

Additional observations from a re-analysis of the deposited data

Results flagged for a closer look

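Itgb1 in female WT phagocytosis 3 stood at 121 CPM, against 81.8 to 87.3 CPM in the other 3 libraries of its group. Its gap to the nearest of them was 0.86 of the group's whole range. Of 36 groups of 4 libraries looked at, this was the 1 so flagged, and chance flags about 1 in 20 groups. The Itgb1 state difference did not pass in any of the 33 alternatives, with log2 fold changes of 0.03 to 0.35.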

How the results depend on the processing

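Under 33 alternatives the number of integrin genes past the threshold in the state mean ran from 2 to 4, against 3 as reported. Itga5 passed in all 33 (log2 fold change 1.89 to 2.32). Itgb3 was lost without the 3 control libraries above 20% satellite-like RNA (-0.78, adjusted p = 0.0705), and in fits leaving out 1 library its adjusted p ran from 0.00115 to 0.0149. Itgb5 was lost with library totals only (-0.32, adjusted p = 0.103), with phagocytosis numbers 3 and 4 only (-0.26, 0.204) and in 11 of 24 fits without 1 library. Itgal passed with no filter (1.56, adjusted p = 0.0173), with the replicate block (2, 0.0168) and with phagocytosis numbers 1 and 2 only (2.04, 0.0155). The cause was not tested.

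Within groups the count of integrin genes past the threshold was 1 in female NL4-/-, female WT and male NL4-/- and 0 in male WT mice. In female NL4-/- it was 2 with DESeq2, no filter, the replicate block or phagocytosis numbers 1 and 2 only, and 0 without the 3 control libraries or with numbers 3 and 4 only. In male NL4-/- it was 0 without the 3 control libraries and 2 with numbers 1 and 2 only. In male WT it was 1 with DESeq2, no filter or numbers 1 and 2 only. Leaving out 1 library gave 0 to 2 in female NL4-/-, 0 to 1 in female WT, 0 to 1 in male NL4-/- and 0 to 1 in male WT mice. Each genotype, sex and interaction count was 0 under all 33, and none of the alternatives reversed a called value.

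Over all genes the state mean called 1332, against 410 without the 3 control libraries, 782 with numbers 3 and 4 only, 880 with length-scaled counts, 1646 with the replicate block, 1772 with numbers 1 and 2 only and 781 without female WT control 2. No pairing of the samples by library number was seen: r of same-numbered libraries ran from -0.141 to 0.176 over 68 pairs, 6 of them above 0.1. Of 24 libraries, 5 correlated best with their own number. Such correlations cannot exclude a pairing by number. With 421107 to 1013797 reads per library, Itgal and Itga4 are measured coarsely.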

Other observations

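Among the 9 integrin genes, the pair with the most similar levels over the 24 libraries, after the mean of each state was taken away, was Itgav and Itgb1 (Pearson's r = 0.565 of log2 CPM), followed by Itga6 and Itga9 (0.469). The lowest value was that of Itgb1 and Itgb3 (-0.379). These values are descriptions over libraries that share groups and depth.

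Itgal had 1 read in male WT phagocytosis 3 and yet the highest Itgal TPM of all libraries there, 7.55.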
